A study of Mus musculus with 2 samples.

Results

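The genes described here build and move cilia: 82 of the 32285 genes in the deposited matrices, taken by symbol alone. A gene was a member where its symbol began with Cfap, Dnah, Rsph, Ift, Dnaaf or Tekt followed by a number, with the interferon-induced Ifit genes left out. By role they comprised 15 axonemal dynein heavy chains, 5 dynein assembly factors, 8 radial spoke genes, 5 tektins, 33 Cfap genes, 3 genes of intraflagellar transport complex A, 11 of complex B and 2 antisense transcripts (Dnah2os and Ift88os). The rule itself used no measured value, but it was set with earlier results of these data known.

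RNA was measured in single cells of the hippocampus of 4-week-old mice with 10x Genomics chemistry that reads transcripts from their 5′ end. One library came from wild-type mice and 1 from mice carrying the L389P mutation of Crlf3, a cytokine receptor-like gene, and each pooled 4 hippocampi of 2 mice. Tissue was dissociated, cleared of debris and myelin and sorted for live cells by 7-AAD before the droplet run. The mutation is a single amino acid change, so the level of Crlf3 RNA does not check the genotype labels. With 1 library per genotype no difference has a replicate check, and every interval below is a 95% interval that covers counting error only.

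A motile cilium is built on an axoneme of microtubule doublets around a central pair. Dynein heavy chains are the motors that slide the doublets, radial spokes carry signals from the central pair to the dyneins, tektins are filaments inside the doublets, and assembly factors fold the dyneins in the cytoplasm before they travel out. Intraflagellar transport carries cargo along the doublets, outward with complex B and back with complex A, and it also serves the immotile primary cilium that many other cells carry. In the brain, ependymal cells line the ventricles and beat tufts of motile cilia that move cerebrospinal fluid, while epithelial cells of the choroid plexus secrete that fluid and bear tufts of cilia of their own.

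After filters on genes, UMIs and mitochondrial RNA and removal of called doublets, 7098 wild-type and 5276 mutant cells were kept, with a median of 6193 and 7385 UMIs (unique molecular identifiers, 1 per captured transcript). Cells were placed in classes by how many of 10 marker genes of a class they contained, and no member was a marker. The ependymal class held 47 wild-type and 18 mutant cells (469020 and 181796 UMIs), the choroid plexus class 418 and 142 cells (5276130 and 2176959 UMIs) and the cycling progenitor class 38 and 52 cells (517724 and 869798 UMIs). Median depth was alike in the 2 ciliated classes, at 9960 and 10208.5 UMIs per ependymal cell and 10201 and 12024 per choroid plexus cell, and higher in progenitors at 13472.5 and 16794. The 2 libraries shared 64 cell barcodes, of which 5 wild-type cells and 1 mutant cell were in these 3 classes. The ependymal markers set the ependymal class, so their presence there does not check its label. Of the 10 choroid plexus markers, 6 were detected in wild-type and 5 in mutant ependymal cells, summing to 985 and 875 CPM against 6244 and 6516 CPM in choroid plexus cells. Calml4 (608 and 556 CPM), Folr1 (239 and 193 CPM), Sostdc1 (72.5 and 88.0 CPM) and Otx2 (44.8 and 27.5 CPM) made up most of that sum, and Kl, Kcne2, Slc4a5 and Kcnj13 were at 0 in both libraries. The part of choroid plexus RNA in the ependymal values was not tested. Levels are given as CPM, the UMIs of 1 gene scaled to a class total of 1000000. Cells of the choroid plexus class carried some ependymal markers themselves (Foxj1 at 119 and 129 CPM), while Ccdc153 and Tmem212, at 1680 and 1821 CPM in wild-type ependymal cells, both had 0 UMIs in wild-type choroid plexus cells and 2.30 and 3.67 CPM in mutant ones. Microglial markers summed to 147 and 49.5 CPM in ependymal cells, 119 and 67.1 CPM in choroid plexus cells and 42697 and 42816 CPM in microglia.

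Summed over all members, ependymal cells stood far above every other class. The 82 genes gave 12889 and 13785 CPM in ependymal cells of the wild-type and mutant libraries, 2688 and 2963 CPM in choroid plexus cells and 1105 and 1185 CPM in progenitors. Astrocytes held 1024 and 1044 CPM, mural cells of vessels 1036 and 1016, neuroblasts 982 and 960, endothelial cells 522 and 507, and microglia 396 and 391. In both libraries 72 of the 82 members had their highest level of the 8 classes in ependymal cells. The remainder comprised 5 with no ependymal UMI in either library (Dnah17, Dnah2os, Dnah8, Ift88os and Rsph6a), Cfap97d1 with a single UMI, in a mutant ependymal cell, and Cfap36, Dnaaf2, Ift46 and Tekt5, which were highest in another class in at least 1 library. Every member had a UMI in at least 1 filtered cell, and 74 had at least 10 ependymal UMIs over both libraries. The share of all genes with their highest level in ependymal cells was not counted, so the 72 stand without a background. In this class 1 UMI equals 2.13 CPM (wild type) and 5.50 CPM (mutant), so a low gene can be highest there from few UMIs.

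**Figure D1:**
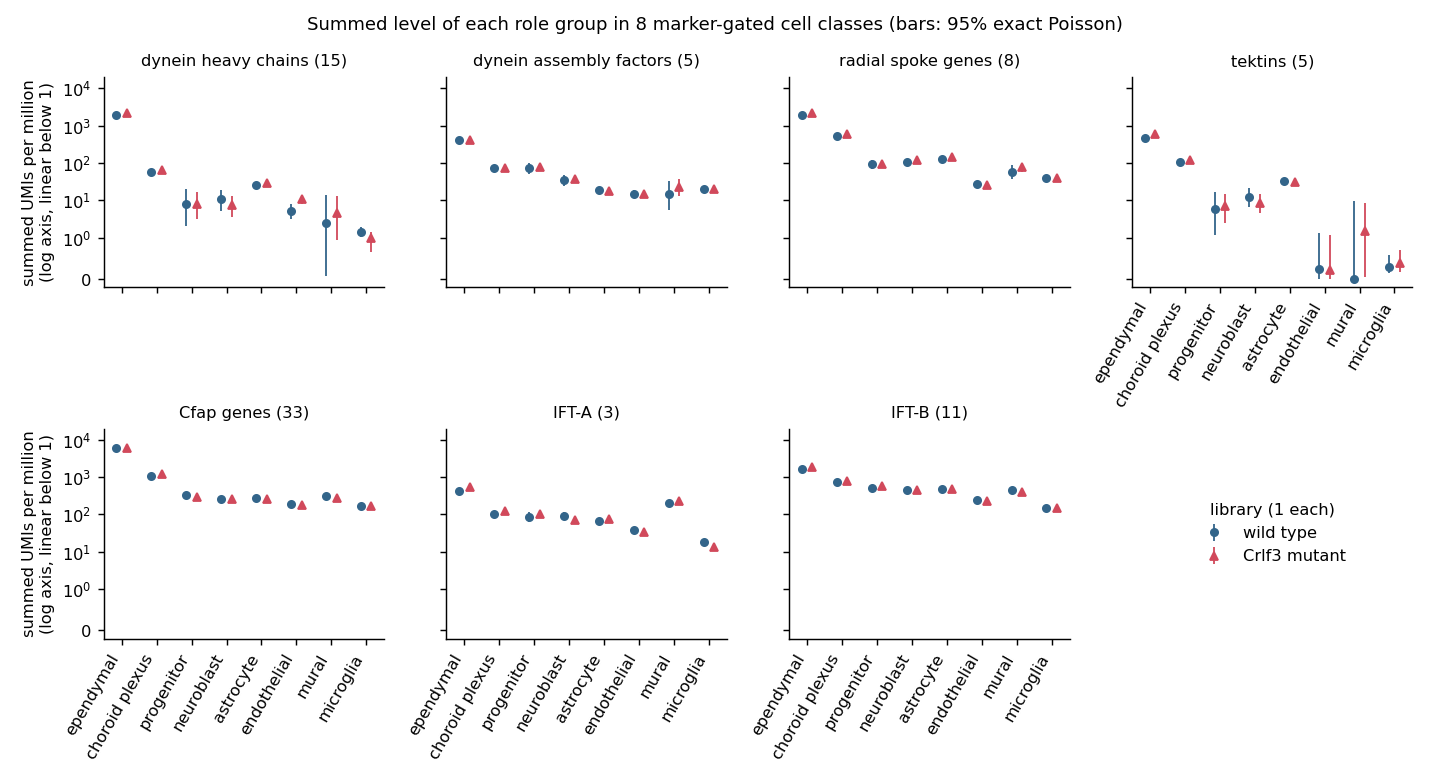
Summed CPM of each role group (vertical axis, logarithmic above 1) in 8 marker-gated cell classes of the wild-type (circles) and Crlf3-mutant (triangles) libraries, with exact Poisson 95% intervals. Each of the 7 groups plotted peaks in ependymal cells; dynein heavy chains fall from 1968 and 2129 CPM there to 58.6 and 66.1 in choroid plexus cells, while complex B falls only from 1655 and 1898 to 753 and 778.

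Single ependymal cells carried many members at once. At full depth a median of 50 distinct members had a UMI in a wild-type ependymal cell (range 14 to 66) and 53 in a mutant one (30 to 68), against 17 and 19.5 in choroid plexus cells and 10.5 and 12 in progenitors. With each cell thinned to 2000 UMIs, the medians were 18 (3 to 27) and 21.5 (12 to 30) in ependymal cells, 4 (0 to 11) and 5 (0 to 15) in choroid plexus cells, 2 and 2 in progenitors and 1 and 1 in microglia. The ependymal and choroid plexus ranges overlapped at this depth in both libraries, and the ependymal median lay above the highest choroid plexus cell. A UMI was found in at least 50% of the ependymal cells of both libraries for 53 members, and in at least 50% of the choroid plexus cells for 12: Cfap126, Cfap298, Cfap36, Ift20, Ift22, Ift27, Ift43, Ift57, Ift74, Rsph1, Rsph9 and Tekt1. The shares of all genes past this limit were not counted. Ependymal cells held more distinct genes of any kind, a median of 3718 and 3649.5 per cell against 2727.5 and 2974 in choroid plexus cells.

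**Figure D2:**
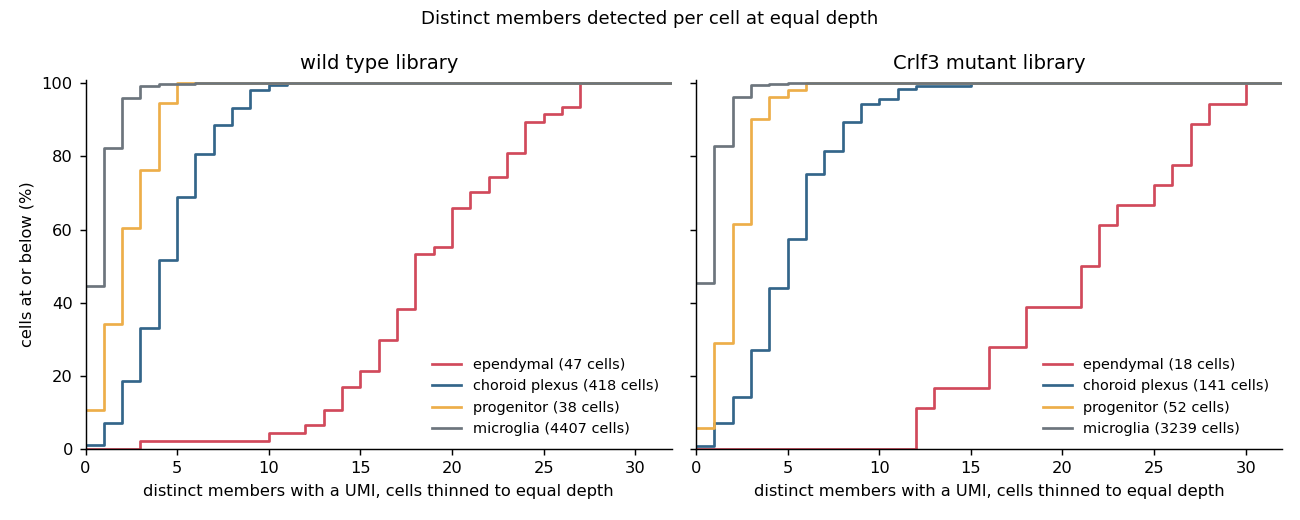
Cumulative share of cells (vertical axis, percent) with at most the number of distinct members on the horizontal axis, each cell thinned to 2000 UMIs, for 4 classes in each library. Ependymal cells reach medians of 18 and 21.5 members, choroid plexus cells 4 and 5, progenitors 2 and 2, microglia 1 and 1.

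Ependymal cells were compared with choroid plexus cells gene by gene, as log2 ratios with a pseudocount of 10 CPM, which pulls the ratios of low genes toward 0. Of the 82 members, 63 (wild type) and 64 (mutant) were at least 2-fold higher in ependymal cells, and 60 were so in both libraries. The background over all 32285 genes was 10.7% and 10.8%, and 7.73% in both libraries, or 26.9% and 25.6% of the genes with at least 10 UMIs in these 2 classes. No member was 2-fold lower in ependymal cells, against 2.69% and 4.09% of all genes. The median ratio of the members without an Ift symbol was 2.20 and 2.34 on the log2 scale and that of the Ift members 1.40 and 1.57. Over all genes with at least 10 UMIs the median was itself shifted, to 0.39 and 0.24. Members past the same limit had medians of 2.25 and 2.52 without an Ift symbol, and 1.44 and 1.63 with one. The choroid plexus RNA Ttr, which encodes the thyroxine carrier transthyretin, took 22.8% and 21.1% of the UMIs of that class, so every other gene's share was lower there. Without Ttr in the totals the counts were 60 and 61 members. The medians, with no UMI limit, were then 2.07 and 2.21 without an Ift symbol, and 1.06 and 1.30 for the Ift members. The choroid plexus class held few cells with Xist but without Y-linked RNA (4 of 418 wild-type and 0 of 142 mutant cells), while ependymal cells contained 10 and 7 of them. Where Y-linked RNA was present without Xist, the counts were 60 and 57 members. They rest on 16 wild-type and only 4 mutant ependymal cells, against 207 and 65 choroid plexus cells. Several of the ependymal gate markers are cilium genes themselves. Under a gate on Rarres2, Mia, Hdc, Nnat and Cd24a instead, with 50 and 19 ependymal cells, the counts were 63 and 64 members. Rarres2, Mia and Hdc are also markers of the main gate, and the choroid plexus class was left unchanged. The 2 gates are thus not independent, and the part of the cilium markers in the counts was not tested.

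**Figure D3:**
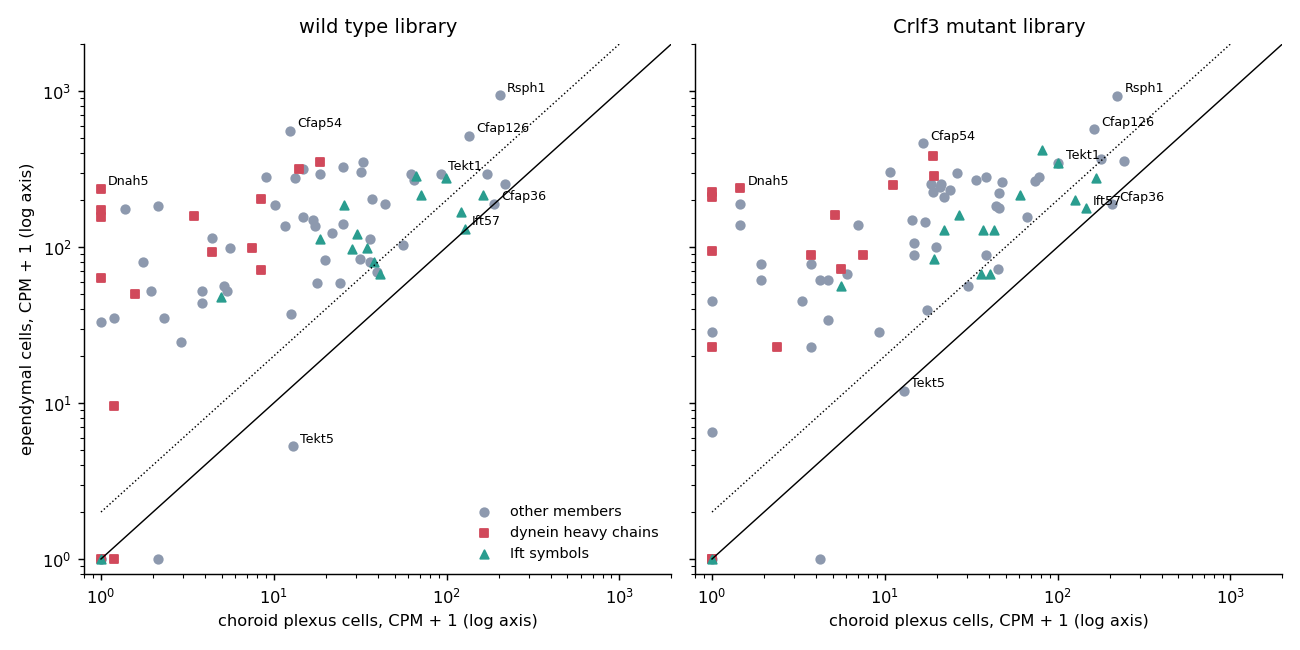
Level of each of the 82 members in choroid plexus cells (horizontal axis) and ependymal cells (vertical axis), both as CPM + 1 on log axes, in each library; the solid line marks equal levels and the dotted line a 2-fold higher ependymal level. Dynein heavy chains (squares) spread to the far left, several at 0 in choroid plexus cells, and Ift members (triangles) lie nearer the solid line, with Ift57 and Cfap36 on or beside it.

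Dynein heavy chains differed most between the 2 ciliated classes. Their summed level was 1968 and 2129 CPM in ependymal cells and 58.6 and 66.1 CPM in choroid plexus cells, a ratio of 33.6 and 32.2. Of the 15 chains, 12 were at least 2-fold higher in both libraries. Within the family, some chains were found in choroid plexus cells and others were not.

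Dnah5 encodes an outer arm heavy chain (GRCm38, chr15:28203752-28472052). It had 110 wild-type and 43 mutant UMIs in ependymal cells (235 and 237 CPM) and 0 and 1 UMI in choroid plexus cells. That is at least 412-fold higher for wild type, with 3 UMIs as the floor for a count of 0, and 515-fold (87.6 to 20805) for the mutant. A Dnah5 UMI was seen in 85.1% and 83.3% of ependymal cells, in 0 and 0.704% of choroid plexus cells and in 0.0223% and 0.0306% of microglia, which carry no motile cilium. Thinned to 2000 UMIs the shares were 36.2% and 38.9% of ependymal and 0 and 0.709% of choroid plexus cells.

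Dnah12, an inner arm heavy chain, had 171 and 209 CPM in ependymal cells and 0 UMIs in choroid plexus cells of either library, at least 300.0-fold and 152-fold higher. Dnah10, another inner arm chain, had 156 and 226 CPM against 0 UMIs, at least 274-fold and 164-fold. Dnah3 had 61.8 and 93.5 CPM against 0 UMIs, at least 109-fold and 67.9-fold. In each of these 3 genes a count of 0 in choroid plexus cells allows up to 0.569 CPM (wild type) and 1.38 CPM (mutant). Dnah3 shares exon sequence on the opposite strand with Lyrm1, and Dnah10 with Gm43777.

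Other heavy chains were present in choroid plexus cells at a few per cent of the ependymal level. Dnah6 had 352 and 380 CPM in ependymal cells and 17.4 and 17.9 CPM in choroid plexus cells (20.2-fold, 15.5 to 26.3, and 21.2-fold, 14.1 to 32.2). Dnah9, an outer arm chain, had 316 and 286 CPM against 13.1 and 18.4 CPM (24.1-fold, 18.0 to 32.6, and 15.6-fold, 10.1 to 24.1). Dnah11, also of the outer arm, had 203 and 248 CPM against 7.39 and 10.1 CPM. Dnah6, Dnah9 and Dnah11 had 92, 69 and 39 UMIs in wild-type choroid plexus cells, where Dnah5, Dnah10 and Dnah12 had 0. In wild-type ependymal cells the former had 165, 148 and 95 UMIs and the latter 110, 73 and 80. The microglial levels of the 6 genes were 0 to 0.341 CPM. Exons of Dnah6, Dnah9 and Dnah11 overlap Gm20560, Gm12296 and Cdca7l on the opposite strand. How strand was handled in the authors' counting is not given, so their levels carry that limit too.

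Dnah1 (158 and 160 CPM against 2.46 and 4.13) and Dnah2 (98.1 and 71.5 against 6.44 and 4.59) lay between. Their exons overlap Gm35823 and Dnah2os on the opposite strand. Dnah7a, Dnah7b and Dnah7c are near-identical copies whose UMIs depend on how the authors' counting treated shared sequence, so their separate values are uncertain. They had 91.7, 70.4 and 49.0 CPM in wild-type ependymal cells and 88.0, 88.0 and 22 CPM in mutant ones. Dnah14 reached only 4 UMIs in each ependymal class, and Dnah8 and Dnah17 reached 0, which allows up to 6.40 CPM (wild type) and 16.5 CPM (mutant).

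**Figure D4:**
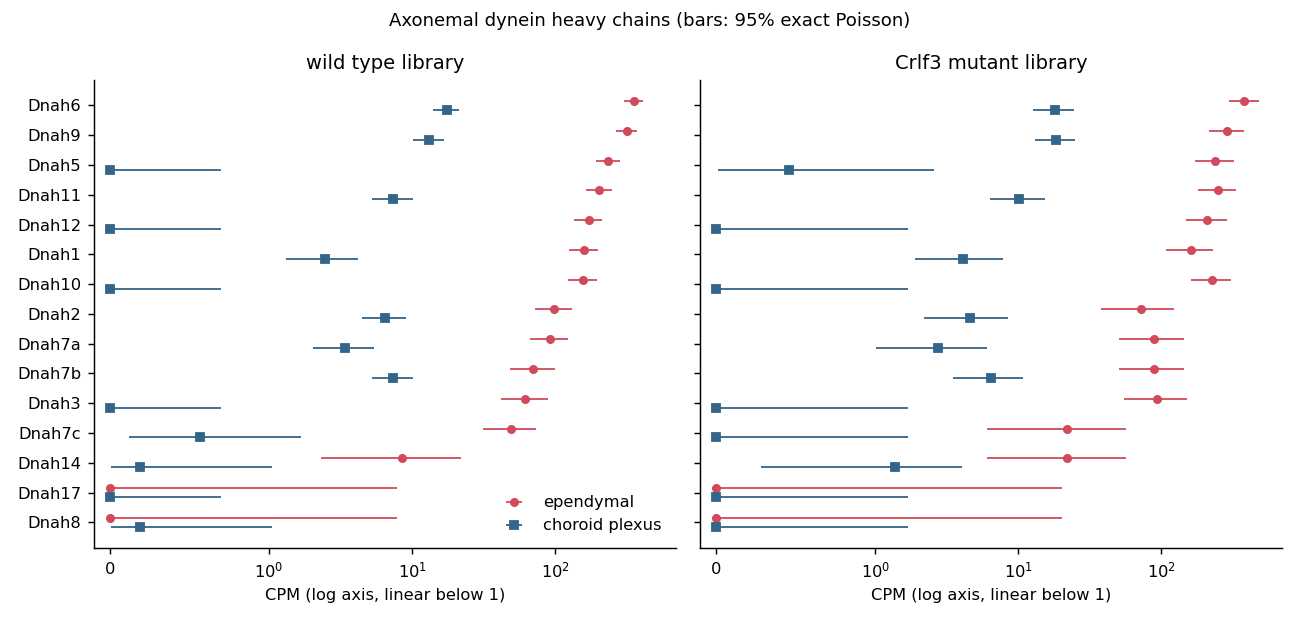
CPM (horizontal axis, logarithmic above 1) of the 15 axonemal dynein heavy chains in ependymal cells (circles) and choroid plexus cells (squares) of each library, with exact Poisson 95% intervals, ordered by the wild-type ependymal level. Dnah3, Dnah10 and Dnah12 are at 0 in choroid plexus cells of both libraries, and Dnah6, Dnah9 and Dnah11 are detected there.

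The assembly factors of the dyneins were higher in ependymal cells without the wide gap of the motors. Dnaaf3 had 139 and 209 CPM in ependymal and 24.1 and 21.1 CPM in choroid plexus cells (5.76-fold, 4.20 to 7.82, and 9.89-fold, 6.26 to 15.5). Dnaaf4 had 134 and 88.0 CPM against 10.6 and 13.8, and Dnaaf1 55.4 and 44.0 CPM against 4.17 and 2.30. Dnaaf5 had 57.6 and 55.0 CPM against 23.1 and 29.4 and passed the 2-fold limit in the wild-type library alone. Dnaaf3 shares exon sequence with Tnni3 on the same strand. Dnaaf2, a cochaperone, had 36.2 and 27.5 CPM against 11.6 and 8.27, from 17 and 5 ependymal UMIs, and had 56.0 and 58.6 CPM in progenitors. With cells thinned to 2000 UMIs its direction over choroid plexus cells turned, to a mean log2 ratio of −0.27.

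Of the 8 radial spoke genes, 4 were at least 2-fold higher than in choroid plexus cells in both libraries, and the most abundant of them were plain to see in both ciliated classes. Rsph1, a spoke head gene (GRCm38, chr17:31255019-31277383), had 440 and 169 UMIs in ependymal cells. Its level was 938 and 930 CPM there and 202 and 220 CPM in choroid plexus cells, 4.64-fold (4.15 to 5.19) and 4.22-fold (3.52 to 5.03). It was found in 100% of ependymal cells of both libraries, in 78.7% and 85.2% of choroid plexus cells and in 0.112% and 0.0306% of microglia, whose median depth was 6358.5 and 7765 UMIs. Thinned to 2000 UMIs, it was found in 85.1% and 83.3% of ependymal cells, 30.1% and 29.1% of choroid plexus cells and 0.0227% and 0.0309% of microglia. Rsph1 RNA was thus found in most choroid plexus cells, a class in which Dnah12 had 0 UMIs.

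Rsph4a, also of the spoke head, had 348 and 281 CPM against 31.8 and 37.7 (10.9-fold, 8.74 to 13.6, and 7.45-fold, 5.14 to 10.7). Rsph9 had 292 and 363 CPM against 171 and 177 and, unlike Rsph1 and Rsph4a, was also found in astrocytes at 74.5 and 79.8 CPM. Rsph10b had 111 and 220 CPM against 35.1 and 44.6, and it shares exon sequence with Pms2 on the same strand. The near-identical copies Rsph3a (102 and 154 CPM against 55.2 and 65.2) and Rsph3b (78.9 and 176 against 35.1 and 44.6, with the same 185 and 97 choroid plexus UMIs as Rsph10b) cannot be separated with certainty. Rsph14 had 51.2 and 66.0 CPM against 4.36 and 5.05, and Rsph6a had no UMI in the 3 classes.

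Of the 5 tektins, 4 had UMIs in choroid plexus cells. Tekt1 had 294 and 347 CPM in ependymal and 92.1 and 100.1 CPM in choroid plexus cells (3.19-fold, 2.62 to 3.87, and 3.46-fold, 2.57 to 4.60). Tekt4 had 113 and 138 CPM against 3.41 and 5.97. Tekt3 had 32 and 44.0 CPM against 0 UMIs in either library, at least 56.2-fold and 31.9-fold higher. Tekt2 rested on 11 and 14 ependymal UMIs (23.5 and 77.0 CPM against 1.90 and 2.76). Tekt5 had 2 and 2 ependymal UMIs (4.26 and 11.0 CPM) and 63 and 26 choroid plexus UMIs (11.9 and 11.9 CPM), ratios of 0.357 (0.0423 to 1.34) and 0.921 (0.106 to 3.68). Its intervals include 1, so no difference was detectable at this depth.

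The 33 Cfap genes, which name cilium and flagellum associated proteins of many kinds, summed to 6027 and 5990 CPM in ependymal cells and 1055 and 1205 CPM in choroid plexus cells. In both libraries 28 of them were at least 2-fold higher. Cfap46, of the central pair, had 175 and 187 CPM in ependymal cells and 2 and 1 UMIs in choroid plexus cells (461-fold, 124 to 3872, and 407-fold, 68.3 to 16548). Cfap54, also of the central pair, had 556 and 462 CPM against 11.4 and 15.6 (48.9-fold, 36.8 to 65.9, and 29.6-fold, 19.6 to 45.5). Cfap161 (279 and 303 CPM against 7.96 and 9.65) and Cfap100 (181 and 138 against 1.14 and 0.459) were likewise low in choroid plexus cells. Cfap126, a basal body and axoneme protein, was found in 66.5% and 73.2% of choroid plexus cells (23.2% and 24.1% thinned to 2000 UMIs), with 516 and 567 CPM in ependymal and 133 and 161 CPM in choroid plexus cells.

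Cfap43, Cfap44 and Cfap45 illustrate the middle of the group. Cfap43 and Cfap44, of the tether between inner arm dyneins and doublets, had 313 and 226 CPM against 13.8 and 17.9, and 324 and 297 CPM against 24.3 and 25.3. Cfap45, inside the doublets, had 301 and 270 CPM against 31.1 and 32.6. All 3 were near 0 in progenitors, with 1 UMI of Cfap43 and 0 of the others over both libraries. Cfap43 shares exon sequence with Itprip on the same strand.

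Cfap36, Cfap298 and Cfap410 had the smallest ratios of the Cfap genes named. Cfap36 had 188 and 187 CPM in ependymal cells and 186 and 205 CPM in choroid plexus cells (1.01-fold, 0.80 to 1.25, and 0.911-fold, 0.623 to 1.29). Cfap298 had 252 and 352 CPM against 217 and 241 (1.16-fold, 0.953 to 1.40, and 1.46-fold, 1.11 to 1.90). Cfap410 had 68.2 and 71.5 CPM against 38.5 and 44.1. Cfap20, at least 2-fold higher in ependymal cells, was still found in every class, from 47.5 and 47.9 CPM in microglia to 269 and 281 CPM in ependymal cells. By their levels in every class, the RNA of Cfap20, Cfap36, Cfap298 and Cfap410 was not limited to ciliated epithelium.

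Of the 15 members with an Ift symbol, 8 were at least 2-fold higher in ependymal than choroid plexus cells in both libraries. Complex A summed to 429 and 539 CPM in ependymal cells, 103 and 120 in choroid plexus cells and 86.9 and 106 in progenitors. Complex B summed to 1655 and 1898 CPM, 753 and 778, and 514 and 594. Ift88, a core subunit of complex B, had 185 and 160 CPM in ependymal and 24.4 and 25.7 CPM in choroid plexus cells (7.59-fold, 5.71 to 10.0, and 6.20-fold, 3.82 to 9.88). Ift140 of complex A had 46.9 and 55.0 CPM against 3.98 and 4.59 (11.8-fold, 6.18 to 22.5, and 12-fold, 4.47 to 32.1). Ift43 of complex A had 284 and 418 CPM against 65.6 and 80.4 (4.32-fold, 3.51 to 5.30, and 5.20-fold, 3.92 to 6.85).

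Ift22 (275 and 347 CPM against 98.0 and 100.1) and Ift27 (213 and 215 against 70.5 and 59.7), small GTPases of complex B, passed the 2-fold limit in both libraries. Ift57 was level, with 130 and 176 CPM in ependymal and 127 and 144 CPM in choroid plexus cells (1.03-fold, 0.776 to 1.33, and 1.22-fold, 0.820 to 1.76). Ift20, which also acts at the Golgi, had 213 and 275 CPM against 161 and 165 (1.32-fold, 1.07 to 1.63, and 1.66-fold, 1.21 to 2.24). Ift74 had 166 and 198 CPM against 121 and 126, and Ift122 98.1 and 66.0 against 33.7 and 34.9. Cfap36 in both libraries, and Ift57, Cfap298 and Ift20 in the wild-type library, lay below the median shift of all measured genes given above.

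The start regions of the members were read from RefSeq windows of 250 bases before to 50 bases after each start on GRCm38.p6, which were found for 65 members. They were searched on both strands for the X-box, the site of RFX factors that is known from ciliary promoters. A match was present in 9 of 65 members (13.8%) and in 474 of 27025 genes with a window (1.75%). The shorter GTTGCC, which can lie inside an X-box match, was present in 26 members (40%) and 14.1% of genes, and GTAAACA, a forkhead motif, in 4 members (6.15%) and 4.05% of genes. Members with a match ranged from ependymal-high ones (Cfap44, Cfap45, Tekt2) to Cfap298, which was near level with choroid plexus cells, and Dnaaf2, which was highest in progenitors. The 30 bases around 1 match of each are shown to let the sites be compared, 5′ to 3′ on the strand of the gene, with the match in capitals.
Cfap44 (chr16:44394764-44394793, plus strand): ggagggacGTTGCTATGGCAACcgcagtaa
Cfap45 (chr1:172521100-172521129, plus strand): ctagttcttggGTTGCTATGGTAACgcgtc
Tekt2 (chr4:126325697-126325726, minus strand): gagggggcgGTTGCTCGGCAACcagagccg
Cfap298 (chr16:90934897-90934926, minus strand): gtttgactGTTGCCCCTGGCAACagccact
Dnaaf2 (chr12:69198430-69198459, minus strand): cctcctcccaggcGTTACTATGGCAACaaa
In Cfap45 the match ended 5 bases before the RefSeq start and in Dnaaf2 3 bases before it. A match is a description of the letters and not a binding site, and windows without one say nothing about the factors.

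Progenitors carry at most a primary cilium. Of the 67 members without an Ift symbol, 22 (wild type) and 30 (mutant) had a UMI in progenitors. They summed to 504 and 485 CPM there, against 10805.5 and 11347.9 CPM in ependymal cells. A count of 0 in progenitors allows up to 5.79 CPM (wild type) and 3.45 CPM (mutant). Of the 82 members, 69 (wild type) and 73 (mutant) were at least 2-fold higher in ependymal cells than in progenitors, against 7.83% and 8.14% of all genes, and 69 were so in both libraries, against 6.04%. No member was 2-fold lower, against 7.81% and 9.97% of all genes. No UMI was found in progenitors of either library for 35 members, among them Dnah5, Dnah6, Dnah9, Dnah11, Cfap44, Cfap54, Rsph4a and Tekt4. The share of all genes without a UMI in progenitors was not counted. Of all 32285 genes, 15413 (wild type) and 14763 (mutant) had a UMI in ependymal cells or progenitors together. Of the 82 members 77 and 78 did. Rsph1 had 0 and 3 UMIs in progenitors, with the ependymal level at least 162-fold higher for wild type and 270-fold (90.7 to 1320) for the mutant. Cfap54 was at least 96.0-fold and 134-fold higher in ependymal cells. The dynein heavy chains together reached 7.73 and 8.05 CPM in progenitors and the tektins 5.79 and 6.90 CPM.

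Transport genes were present in progenitors. All 14 coding Ift members had a UMI in progenitors of both libraries, and they summed to 601 and 700 CPM there, against 856 and 898 CPM in choroid plexus cells. The Ift median of ependymal over progenitor cells was 1.59 and 1.37 on the log2 scale. Among Ift members with at least 10 UMIs it was 1.61 and 1.42, where the median of all such genes was −0.24 and −0.44. Ift27 had 213 and 215 CPM in ependymal cells and 116 and 110 CPM in progenitors (1.84-fold, 1.32 to 2.58, and 1.94-fold, 1.30 to 2.85). Ift74 had 75.3 and 88.5 CPM in progenitors (2.21-fold, 1.48 to 3.33, and 2.24-fold, 1.46 to 3.36) and Ift46 40.6 and 46.0 CPM (1.63-fold, 0.907 to 2.98, and 2.75-fold, 1.57 to 4.71). Among members with at least 10 UMIs Dnaaf2 had the lowest ratios, 0.647 (0.334 to 1.22) and 0.469 (0.146 to 1.17), both with intervals that include 1. By the mean log2 ratio with the pseudocount Cfap97 followed it. Cfap97 had 57.6 and 38.5 CPM in ependymal cells and 25.1 and 21.8 CPM in progenitors.

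Between choroid plexus cells and progenitors, 26 members (wild type) and 31 (mutant) were at least 2-fold higher in choroid plexus cells, against 4.47% and 4.69% of all genes. In both libraries 25 were so, against 3.83%, and Ift20 was the 1 Ift member among them. Dnaaf2 was at least 2-fold lower in choroid plexus cells in both libraries, the 1 member of the 82 that was; of all genes 12.8% and 12.7% were lower, and 10.7% in both.

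Genes of the same pathways with other symbols were taken from lists drawn up beside the members. The background for them is again 7.73% of all genes over choroid plexus cells and 6.04% over progenitors. Of 44 other axonemal genes, 42 were at least 2-fold higher in ependymal than choroid plexus cells in both libraries and 44 than in progenitors; Dynlrb2 among them was also a gate marker. Odf3b had 804 and 847 CPM in ependymal and 8.72 and 12.9 CPM in choroid plexus cells, and Tppp3 701 and 754 against 5.31 and 6.43. Of 16 regulators of multiciliation, 9 were at least 2-fold higher in both libraries. Foxj1, the forkhead activator of motile cilium genes and here a gate marker, had 1320 and 1793 CPM in ependymal and 119 and 129 CPM in choroid plexus cells. Myb, which acts early in multiciliation, had 100.2 and 138 CPM against 0 and 0.459. Gmnc, which acts at the head of that programme, had 1 and 2 UMIs in ependymal cells (2.13 and 11.0 CPM) and 104 and 37 in choroid plexus cells (19.7 and 17.0 CPM). Its ratio was 0.108 (0.00271 to 0.616) in the wild-type library, and 0.647 (0.0756 to 2.51) for the mutant, where no difference was detectable at this depth.

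Lists of transport and primary cilium genes had smaller shares past the limit. Of 10 transport subunits with other symbols, 4 were at least 2-fold higher than in choroid plexus cells in both libraries, and of 9 transport motor subunits 5, among them Dync2h1, the heavy chain of the return motor (209 and 160 CPM against 21.6 and 16.1). Of 20 transition zone and ciliary membrane genes 10 passed in both libraries. Of 9 genes listed for the BBSome, a membrane cargo adaptor, and its partner Arl6, 2 did. In the single libraries 4 (wild type) and 3 (mutant) of these 9 passed, against 26.9% and 25.6% of genes with at least 10 UMIs. Hedgehog signalling genes, which act in primary cilia, gave 1 of 10, near the background, and summed to 151 and 132 CPM in ependymal cells, 34.9 and 36.3 CPM in choroid plexus cells and 180 and 176 CPM in progenitors. Kif3a, a subunit of the outward motor, had 139 and 77.0 CPM in ependymal cells, 38.9 and 38.1 in choroid plexus cells and 79.2 and 103 in progenitors.

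Mutant and wild-type libraries were then compared within each class. Among the 74 members with at least 10 ependymal UMIs, 5 were at least 1.5-fold higher and 2 at least 1.5-fold lower in the mutant library, on the log2 scale with the pseudocount of 10 CPM. The background over genes with at least 10 UMIs in the class was 9.8% higher and 16.2% lower, so the shares of members, 5 and 2 of 74, stood below it. Without a pseudocount, a setting added after the data were seen, 9 were higher and 4 lower, against 14.1% and 22.6% of such genes. The median log2 ratio of mutant over wild type was 0.06, beside −0.04 over all such genes. The ependymal class had only 18 mutant cells, of which 7 held Xist alone and 4 Y-linked RNA alone, and 47 wild-type cells, with 10 and 16. Restricted to the Xist cells the median was 0.51, and restricted to the Y-linked ones −0.15. Genotype, animal and sex composition cannot be told apart in these 2 pools.

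The ependymal members with the highest ratio, with or without the pseudocount, included Tekt2, Rsph3b, Rsph10b and Cfap97d2. Tekt2 had 11 wild-type and 14 mutant UMIs, 3.28-fold (1.38 to 7.99). Rsph3b had 37 and 32 UMIs (2.23-fold, 1.35 to 3.68), Rsph10b 52 and 40 (1.98-fold, 1.28 to 3.06) and Cfap97d2 63 and 46 (1.88-fold, 1.26 to 2.80). The fifth past 1.5-fold, named after its value was seen, was Ift46 with 31 and 23 UMIs. The lowest by log2 ratio with the pseudocount were Dnah7c (−0.88), Cfap57 (−0.62), Dnaaf4 (−0.56) and Ift122 (−0.51). Without it Dnah7c was 0.449-fold (0.113 to 1.31), and the intervals of all 4 include 1. These 8 were picked as extremes of 74 genes, and their intervals are not adjusted for that choice.

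In choroid plexus cells, where depth was greater, no member of 66 with at least 10 UMIs reached 1.5-fold in either direction on the scale with the pseudocount. The background was 0.449% higher and 0.423% lower, and the members' median log2 ratio was 0.10 beside 0.03 over all such genes. Without a pseudocount 7 were higher and 2 lower, against 7.54% and 9.37% of such genes. With the pseudocount the highest was Cfap299 (12.3 CPM in wild-type and 23.0 in mutant cells), at 0.56 on the log2 scale. Cfap77 followed at 0.52, with 9.10 and 17.5 CPM. Without the pseudocount they were 1.86-fold (1.26 to 2.74) and 1.92-fold (1.22 to 3.0). The highest was then Cfap221, with 4 and 7 UMIs (4.24-fold, 1.08 to 19.8), and the lowest Cfap157, with 15 and 2 UMIs (0.323-fold, 0.0359 to 1.39). With the pseudocount the lowest were Cfap53 (18.8 and 13.8 CPM) and Ift80 (27.5 and 21.1 CPM). In progenitors 27 members could be compared, and Ift20 was higher in the mutant library (34.8 and 69.0 CPM, 1.98-fold, 1.16 to 3.57) and Cfap69 lower (11 and 3 UMIs, 0.162-fold, 0.0291 to 0.615). The background there was 5.86% higher and 4.41% lower. None of these differences has a replicate check.

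**Figure D5:**
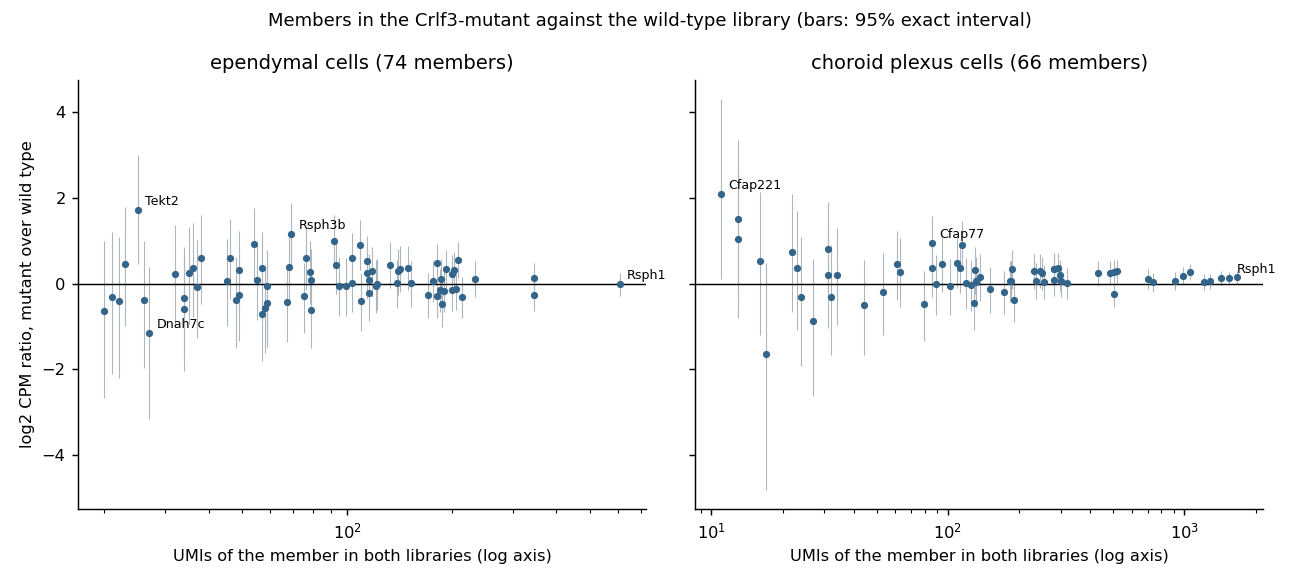
Log2 ratio of CPM, mutant over wild-type library, without a pseudocount (vertical axis) against the member's UMIs in both libraries (horizontal axis, logarithmic), with exact 95% intervals, for 74 members in ependymal and 66 in choroid plexus cells. Ratios spread widely at low counts and close in on 0 at high counts. Rsph1, with the most UMIs of the members in ependymal cells, lies near 0 in both classes.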

How the data were processed

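Per the labels' protocols and file headers, the authors deposited raw UMI counts per gene and barcode, made with Cell Ranger 6.1.1 against mm10-2020-A; the submitters' processing notes also list Partek, without a role. Barcodes needed 500 genes and 1000 UMIs, with mitochondrial RNA up to 10%, and doublets called by Scrublet (scanpy 1.11.5; 148 wild-type, 77 mutant) were removed. Cells joined the class with the largest share of its 10 markers present (at least 0.7, and 0.2 above the next class); progenitors needed 4 neural lineage and 4 cycling markers. Several ependymal markers are cilium genes themselves. The gate thresholds were set from marker counts after the files were read; 279 and 188 cells stayed unclassed. UMIs were summed per class and library as CPM. Shares of CPM follow the class total, so an abundant RNA lowers all others. Ratios carry exact conditional binomial intervals, levels exact Poisson and shares Clopper-Pearson intervals at 95%, for counting error only, and no test was possible. A ratio against 0 UMIs uses 3 UMIs as a floor. The ratio code was tested on simulated data. Positions are from GENCODE vM21, matched for all 82 members. Exon overlaps on the opposite strand are named above for some members only. Genes to be named were up to 6 members per role group with the most ependymal UMIs, the 10 highest and 10 lowest ratios over choroid plexus cells, the 5 highest and lowest over progenitors, the 4 highest and lowest of mutant over wild type per class, near-identical copies, and up to 4 genes of each other list; other genes given were chosen after their values were seen. Members, lists and motifs were chosen with earlier results of these data known. Alternatives comprised 11 planned and 2 added after seeing the data (Ttr left out, shared barcodes left out), and genotype counts were repeated without a pseudocount, also added then.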

Additional observations from a re-analysis of the deposited data

How the results depend on the processing

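No paired analysis was possible because each genotype is 1 library and the labels pair no samples. The 6 summaries were recomputed under the alternatives. The counts of members at least 2-fold higher in ependymal than choroid plexus cells ran from 44 to 66 (wild type) and 51 to 67 (mutant), and those over progenitors from 54 to 73 and 56 to 74, within 1.5 times the reported counts. With a pseudocount of 1 CPM the median log2 ratio over choroid plexus cells of members without an Ift symbol was 3.283 (wild type) and 3.274 (mutant), and with 50 CPM 1.344 and 1.313; the wild-type Ift median was 0.8442 with 50 CPM. A larger pseudocount pulls low genes toward 0. The remaining medians stayed between the medians of their members' lower and upper counting bounds. Among single genes, Cfap97 and Dnaaf2 changed sign over choroid plexus cells when cells were thinned to 2000 UMIs (mean log2 ratios −0.5603 and −0.2695); the cause was not tested. Counts of members past 1.5-fold between genotypes depended on the pseudocount: 5 and 2 became 9 and 4 in ependymal cells and 0 and 0 became 7 and 2 in choroid plexus cells without it. Mutant choroid plexus cells with Xist and no Y-linked RNA gave no value, since there were 0. Depth limits the ependymal class most: 1 mutant UMI there equals 5.50 CPM.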

Other observations

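Several members had RNA outside the ciliated classes. Astrocytes carried Tekt4 at 25.8 and 23.3 CPM in the wild-type and mutant libraries (121 and 87 UMIs, in 13.5% and 13.9% of cells, or 4.74% and 4.47% thinned to 2000 UMIs), against 3.41 and 5.97 CPM in choroid plexus cells and 0 UMIs in microglia, endothelial and mural cells, neuroblasts and progenitors. Dnah7b (15.1 and 17.9 CPM), Cfap100 (12.6 and 11.0 CPM) and Cfap97d2 (10.6 and 12.1 CPM) were likewise found in astrocytes of both libraries, while Dnah6, Dnah9, Dnah11, Rsph4a and Cfap65 had at most 2 UMIs there in either library. The summed level of the ependymal markers in astrocytes was 98.4 and 95.6 CPM. Rarres2, which mural cells held at 587 and 517 CPM, made up 67.7 and 68.6 of it, and Mia 15.3 and 16.1. Ccdc153 and Tmem212 were at 0 CPM in wild-type astrocytes and at 0.268 and 0 CPM in mutant ones. The part of ependymal RNA in these values was not tested.

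Microglia carried Cfap74 (GRCm38, chr4:155409190-155466823) at 37.0 and 42.5 CPM, in 21.1% and 26.5% of cells (7.17% and 8.09% thinned to 2000 UMIs), against 13.8 and 13.3 CPM in choroid plexus cells and 0.967 and 0.647 CPM in endothelial cells. Its exons overlap 5830444B04Rik on the opposite strand, and how strand was handled in the authors' counting is not given in the sources used here. Cfap45 was found in microglia at 9.65 and 5.99 CPM. The antisense transcript Dnah2os was found mainly in endothelial cells (34 and 35 UMIs, 8.22 and 7.55 CPM) and had 0 UMIs in ependymal cells, where Dnah2 itself had 98.1 and 71.5 CPM. Dnah3 had 9 and 11 UMIs in endothelial cells and 0 or 1 in the other classes outside ependymal cells. Mural cells of both libraries held Ift43 at 171 and 196 CPM and Ift20 at 204 and 151 CPM, against 65.6 and 80.4 CPM and 161 and 165 CPM in choroid plexus cells.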
